A study of Homo sapiens with 15 samples.

Results

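The comparison of Late_S with Early_S used 6 of the 15 libraries of a SLAM-seq series in U2OS cells, an established human osteosarcoma line. They are the 3 libraries titled Late_S and the 3 titled Early_S, chosen by title alone. All were made from cells that took up 4-thiouridine, which enters new RNA in place of uridine, and EdU, which enters newly copied DNA in place of thymidine, in the same pulse of 45 minutes. The cells were fixed with glyoxal and sorted by EdU and DNA content, so the gates differ in position within S phase and in nothing that was added to the cells. The title of the series speaks of synchronised cells, but by the protocol the cells grew asynchronously and were told apart by sorting. RNA was alkylated, after which the sequencer reads the labelled base as C where T is encoded, and 500 ng went into 3' end libraries, so reads pile up at transcript ends. The other groups, each of 3 libraries, are G1 and G2, sorted the same way, and No_alkylation, in which the chemical step was left out and whose cell cycle phase the labels do not give. The labels do not say whether the 3 libraries of a group came from separate cultures, so p-values measure the spread between these libraries, which may be technical.

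S phase is the period in which the genome is copied. Early in it, cells still carry transcripts of the G1/S step, driven by E2F factors, and make histones and replication enzymes. Later, genes for mitosis are switched on through the MuvB and B-MYB complexes, which act at short promoter elements named CHR (cell cycle genes homology region), and through NF-Y at CCAAT boxes. SLAM-seq gives 2 kinds of number for each gene. The level of all reads (CPM, counts per 1000000 reads of the library after scaling between libraries) measures the RNA present. A read with a T>C conversion marks RNA made during the pulse, and the labelled share is the percentage of a gene's reads that carry one, which is high where RNA turns over fast.

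The 6 libraries held 16096695 to 21625091 reads over the counted regions, and 10.9% to 12.1% of the reads of a library in the series were mapped to more than 1 place. That percentage was 12.1%, 11.9% and 12.1% in the Early_S libraries and 11.2%, 11.5% and 11.2% in the Late_S libraries, with no overlap. Over genes, levels of all reads correlated at 0.971 to 0.980 between libraries of a gate and at 0.965 to 0.971 between the gates. Of 13 mesenchymal and osteoblast markers in the files, 10 reached 1 CPM, and their summed level was 3156 to 3422 CPM in Early_S and 3174 to 3464 CPM in Late_S, most of it VIM. The osteoblast marker IBSP was at 0 in every one of the 6 libraries and SP7, another, was at or near 0. Of 14 blood cell markers, 3 reached 1 CPM, with a sum of 5.20 to 11.8 CPM in Early_S and 4.39 to 6.51 CPM in Late_S, and CD14, CD3E, HBA2, HBB and LYZ were at 0. Of 11 epithelial markers, 7 reached 1 CPM, and KRT8 and KRT18 carried most of a sum of 1409 to 1701 CPM in Early_S and 1364 to 1473 CPM in Late_S.

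Late_S libraries held fewer labelled reads than Early_S libraries, with a ratio of labelled shares of 0.546. T>C reads made up 18.9%, 17.9% and 18.5% of all reads in the 3 Early_S libraries and 9.95%, 10.1% and 10.1% in the 3 Late_S libraries. All 3 Late_S libraries lay below all 3 Early_S libraries, with means of 10.0% ± 0.0870 and 18.4% ± 0.516 (SD, n = 3 each). Without alkylation the share was 1.01% ± 0.0179 (SD, n = 3). The difference was -8.37 percentage points, with a two-sided exact permutation p of 0.1, the smallest that 3 against 3 can give. The conversion rate, which counts T positions and not reads, was 2.44%, 2.26% and 2.36% in Early_S and 1.28%, 1.29% and 1.30% in Late_S, against 0.0447% without alkylation (mean of 3). Its difference was -1.06 percentage points (exact permutation p = 0.1, two-sided). The cause of this difference was not tested.

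The fall reached most genes. For the median gene the labelled share was 23.3%, 19.3% and 22.2% in the Early_S libraries, 10.3%, 10.8% and 10.4% in the Late_S libraries and 0.267% to 0.315% without alkylation. The mean share was lower in Late_S in 10430 of 11459 genes (91.0%), and the median ratio of Late_S to Early_S was 0.529. In 1486 genes the ratio was above 0.9. T>C reads are therefore given below on 2 scales. The T>C scale (T>C CPM) counts them per 1000000 T>C reads of the library after scaling between libraries. It sets the bulk of genes near 0 (median log2 difference -0.01). The all-read scale counts them per 1000000 reads of any kind, scaled as for the level of all reads. On it the log2 difference of the median gene was -0.91.

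At steady state, counted over all reads, 962 of 13755 genes rose from Early_S to Late_S (6.99%) and 585 fell (4.25%), by edgeR's quasi-likelihood test at a Benjamini-Hochberg adjusted p under 0.05. The genes that rose had a median log2 change of 0.64 and those that fell -0.43, and 254 called genes changed by more than 2-fold. Scaled by library totals without TMM factors, the split was 1160 up and 399 down. Without Late_S library 3 there were 662 up and 285 down. Of the 1547 called genes, 1492 had no overlap between the 3 libraries of each gate, as had 28.5% of all genes tested. More cells of one kind in a gate and more RNA per cell cannot be told apart in these bulk samples, since each gate holds cells at a range of positions in S phase.

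Many genes of mitosis rose. Among regulators of G2/M, 20 of 43 rose and 1 fell, with a median of 0.36 on the log2 scale, against -0.04 over all genes. In 4 promoters the letters of the elements named above are shown, because the comparison turns on these genes and on the immediate early gene EGR1, which fell. Each run is the 250 bases before the RefSeq start (GRCh38.p14), 5' to 3' on the gene's strand. Capitals mark CHR (TTTGAA or TTCAAA), the CCAAT box (CCAAT or ATTGG), the cyclic AMP response element (TGACGTCA) and the CArG box, bound by SRF, wherever each is found on either strand. The PLK1 run is chr16:23678639-23678888 (plus strand), that of CDC20 chr1:43358731-43358980 (plus), that of CCNA2 chr4:121823884-121824133 (minus) and that of EGR1 chr5:138465229-138465478 (plus).
PLK1: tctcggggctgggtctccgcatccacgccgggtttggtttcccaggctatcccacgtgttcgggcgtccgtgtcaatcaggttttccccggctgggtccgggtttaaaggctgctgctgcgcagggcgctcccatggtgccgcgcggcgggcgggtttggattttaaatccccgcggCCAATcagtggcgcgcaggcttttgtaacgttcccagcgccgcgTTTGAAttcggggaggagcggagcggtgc
CDC20: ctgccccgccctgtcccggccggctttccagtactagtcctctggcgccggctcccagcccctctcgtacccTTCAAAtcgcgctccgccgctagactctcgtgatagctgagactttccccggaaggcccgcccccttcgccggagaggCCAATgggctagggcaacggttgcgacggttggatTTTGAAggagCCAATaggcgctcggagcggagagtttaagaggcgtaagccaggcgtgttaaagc
CCNA2: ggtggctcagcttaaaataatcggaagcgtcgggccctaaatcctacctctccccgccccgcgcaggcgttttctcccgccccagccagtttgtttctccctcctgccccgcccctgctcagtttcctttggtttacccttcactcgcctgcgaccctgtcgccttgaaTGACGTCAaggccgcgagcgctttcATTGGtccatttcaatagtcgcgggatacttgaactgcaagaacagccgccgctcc
EGR1: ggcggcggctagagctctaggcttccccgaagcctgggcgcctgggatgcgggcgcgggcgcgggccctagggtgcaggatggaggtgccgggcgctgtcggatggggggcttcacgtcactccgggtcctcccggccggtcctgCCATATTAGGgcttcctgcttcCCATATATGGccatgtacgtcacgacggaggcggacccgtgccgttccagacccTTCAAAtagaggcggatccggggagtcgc
In PLK1 the CHR letters begin 29 bases before the start and the CCAAT letters 73 bases before it. CDC20 holds CHR letters at 178 and 65 bases and CCAAT letters at 100 and 55 bases before the start. CCNA2 has CCAAT letters at 56 bases and the cyclic AMP element at 81 bases. EGR1 has CArG boxes at 105 and 83 bases and CHR letters at 29 bases. Of the 9 immediate early genes named by the same rule, 5 had a promoter in the table, with a CArG box in 1 of them (EGR1), CHR letters in 1 and CCAAT letters in 3. Of the 11 G2/M regulators named by rule at steady state or by T>C reads, 10 had a promoter in the RefSeq table, and CHR letters were in 8, CCAAT letters in 10 and a CArG box in 0 of them. Over 35116 RefSeq promoters of the same length the shares were 13.3% for CHR, 32.0% for CCAAT, 1.65% for the cyclic AMP element and 1.16% for the CArG box. The E2F letters TTTCCCGC, GCGGGAAA, TTTGGCGC and GCGCCAAA were in 1.93% of all promoters and in 0 of the 10. A match of letters is a description of the sequence, not a measured binding site.

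AURKA, the kinase of centrosomes and spindle poles, had 77.4, 66.9 and 77.8 CPM in the Early_S libraries and 169, 177 and 208 CPM in the Late_S libraries. The gates did not overlap, and the log2 change was 1.32 ± 0.114 (SE), with an edgeR adjusted p of 3.3e-11. Its most covered region, at the transcript end, was chr20:56369389-56370469 (hg38, minus strand). PLK1, the kinase that drives mitotic entry, stood at 92.2, 68.2 and 77.7 CPM and then at 170, 186 and 165 CPM, at chr16:23690064-23690367 (plus strand). Every Late_S library exceeded every Early_S library for PLK1 too (log2 change 1.13 ± 0.115, edgeR adjusted p = 2.1e-09). CDC20, which activates the anaphase-promoting complex, had 234, 223 and 216 CPM in Early_S and 388, 423 and 336 CPM in Late_S, a log2 change of 0.77 ± 0.0820. Of the reads of CDC20, 23.6% mapped to more than 1 place. The cyclin gene CCNA2 had 58.2, 69.4 and 61.2 CPM and then 117, 111 and 102 CPM, a log2 change of 0.81 ± 0.115. CDCA8, a subunit of the chromosomal passenger complex, changed by 1.02 and TOP2A, which untangles sister DNA, by 0.94 ± 0.125 on the log2 scale. Cyclin B1 (CCNB1), the partner of CDK1 at mitotic entry, differed by 0.23 with an edgeR adjusted p of 0.088, so it was not called.

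Spindle and cytokinesis genes had the highest median of the lists, 0.54 on the log2 scale, with 20 of 39 up and 0 down. KIF23, a motor of the midzone, changed by 0.82 ± 0.0978, FAM83D, a spindle protein, by 1.03 ± 0.142 and TPX2, the activator of AURKA, by 0.57. Of kinetochore and checkpoint genes, 12 of 34 rose and 1 fell, with a median of 0.21. CENPF, a large kinetochore protein, had 61.7, 59.1 and 55.6 CPM in Early_S and 138, 123 and 117 CPM in Late_S. Those libraries did not overlap and the log2 change was 1.10 ± 0.121. BUB1B, a kinase of the spindle checkpoint, changed by 1.35 ± 0.177 from 15.8 to 26.1 CPM in Early_S to 48.0 to 60.1 CPM in Late_S. Of the condensin and cohesin genes, which fold and hold sister chromatids, 8 of 21 rose and 0 fell (median 0.38). SMC4, a condensin subunit, had 309, 236 and 274 CPM and then 458, 451 and 462 CPM, so every Late_S library lay above every Early_S library. WAPL, which releases cohesin, changed by 1.08 ± 0.154, and RAD21, the closing subunit of the ring, by 0.45.

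**Figure D1:**
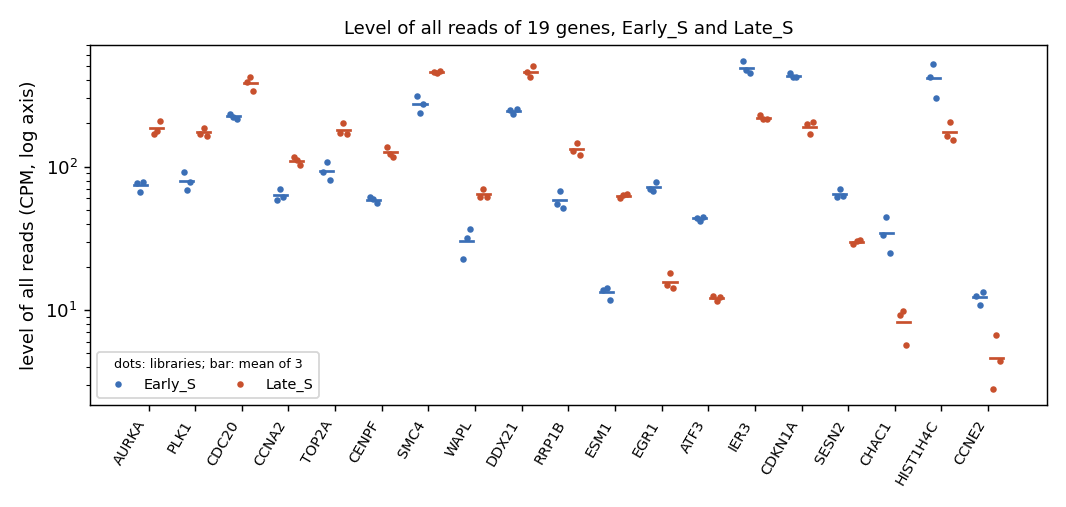
Level of all reads (CPM, logarithmic axis) of 19 genes in the 3 Early_S libraries (blue) and the 3 Late_S libraries (red), with a bar at the mean of 3. The genes of mitosis, chromatid cohesion and ribosome assembly at the left are higher in every Late_S library, while EGR1, IER3, CDKN1A and CCNE2 at the right are lower in every one.

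Genes of the G1/S step and of the replication machinery moved little as groups. Of 30 E2F targets active at that step, 5 rose and 3 fell, with a median of -0.03, and leaving out 1 library changed these counts to as few as 2 up (without Late_S library 3) and 0 down (without Late_S library 1 or 3). CCNE2, a cyclin E that drives entry into S phase, had 12.6, 10.9 and 13.4 CPM in Early_S and 2.82, 6.76 and 4.44 CPM in Late_S. Its log2 change of -1.39 ± 0.389 passed (edgeR adjusted p = 0.014), but not without Late_S library 1 or 3. CCNE1 stood at 140, 147 and 135 CPM against 133, 129 and 128 CPM and was not called (edgeR adjusted p = 0.55). PCNA, the sliding clamp of the fork, differed by -0.03 with overlapping libraries, and RRM2, a subunit of ribonucleotide reductase, by -0.20 (edgeR adjusted p = 0.056). Of origin licensing and firing genes, 4 of 26 rose and 1 fell, with MCM10, needed for origin firing, at 0.89 ± 0.190. Without any 1 of Early_S libraries 1 and 3 and Late_S libraries 1 and 2, 2 rose. Fork and nucleotide genes had 3 of 33 up and 1 down, with RFC1, the large subunit of the clamp loader, at 0.86 and MSH6, a mismatch repair protein, at 0.57. Of homologous recombination genes, 3 of 22 rose and 0 fell, and 1 rose without Early_S library 3 or any 1 of the Late_S libraries.

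Replication-dependent histone genes, whose messages mostly end in a stem-loop without a poly(A) tail, were counted for 35 of 68 names, and libraries primed on poly(A) see only the tailed part. Of 26 tested, 1 rose and 2 fell. HIST1H4C had 424, 517 and 303 CPM in Early_S and 164, 204 and 153 CPM in Late_S, a log2 change of -1.26 ± 0.131 with no overlap and with 0.275% of its reads multimapped. Of 12 replacement histone genes, whose messages are tailed in all phases, 2 rose and 1 fell. H3F3B, which encodes H3.3, had 891, 906 and 908 CPM and then 1361, 1276 and 1249 CPM, a log2 change of 0.52 ± 0.0549, with 16.6% of its reads multimapped. CENPA, the centromeric histone, rose by 0.76 from 31.1, 44.1 and 39.4 CPM to 59.96, 67.1 and 66.9 CPM.

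Ribosome biogenesis rose as a second large group, with 19 of 35 genes up, 0 down and a median of 0.44. DDX21, an RNA helicase of the nucleolus, had 248, 231 and 253 CPM in Early_S and 456, 420 and 502 CPM in Late_S, at chr10:68982813-68985073 (plus strand). The gates did not overlap, and the log2 change was 0.91 ± 0.0839 (edgeR adjusted p = 1.7e-10). RRP1B, a nucleolar processing factor, had 55.0, 68.1 and 51.9 CPM and then 129, 146 and 121 CPM, a log2 change of 1.18 ± 0.113. WDR43 changed by 0.97 and NOP16 by 0.79. The ribosomal proteins themselves went the other way: 0 of 83 cytosolic ribosomal protein genes rose and 58 fell, each by little, with a median of -0.22. RPS16 had 3746, 3755 and 3626 CPM and then 3112, 3186 and 2961 CPM, a log2 change of -0.27 ± 0.0430. That count was 22 without Early_S library 1, 32 without Late_S library 1, 24 without Late_S library 3 and 37 without TMM factors, and among the 34 genes with at most 10% multimapped reads it was 20. Oxidative phosphorylation genes had 0 of 35 up and 10 down (median -0.18; 3 down without Late_S library 3), with COX5B, a cytochrome oxidase subunit, at -0.52 ± 0.0853.

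Immediate early genes, which growth factor and stress signals switch on without new protein, had the lowest median of the lists. Of 28 tested, 0 rose and 12 fell, with a median of -0.65 on the log2 scale. EGR1, a zinc finger transcription factor, had 69.6, 67.1 and 78.0 CPM in the Early_S libraries and 14.9, 18.3 and 14.2 CPM in the Late_S libraries, at chr5:138468082-138469315 (plus strand). The gates lay far apart, with a log2 change of -2.18 ± 0.165 (edgeR adjusted p = 5.1e-13). IER3, a regulator of survival signals, had 544, 475 and 450 CPM and then 227, 215 and 214 CPM, a log2 change of -1.16 ± 0.0773. ATF3, a stress-induced leucine zipper factor, had 44.1, 41.7 and 44.8 CPM and then 12.6, 11.6 and 12.3 CPM, a change of -1.84 ± 0.197. MYC, which drives growth genes, changed by -1.01 ± 0.183 and ZFP36L1, which binds AU-rich messages and speeds their decay, by -0.79. JUN differed by -0.20 with overlapping libraries (edgeR adjusted p = 0.24), and FOS, at 5.01 to 5.94 CPM in Early_S and 1.57 to 2.70 CPM in Late_S, by -1.42 (edgeR adjusted p = 0.10). Of genes that feed back on MAPK signals, 1 of 17 rose and 3 fell. They included the phosphatase genes DUSP7 (log2 change 0.58), DUSP1 (-0.80) and DUSP2 (-0.94).

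Targets of p53, the factor that answers DNA damage, had 0 of 27 up and 7 down, with a median of -0.40. CDKN1A, the inhibitor p21 of cyclin-dependent kinases, had 448, 420 and 422 CPM in Early_S and 198, 170 and 203 CPM in Late_S, at chr6:36685801-36687339 (plus strand). Its libraries did not overlap and its log2 change was -1.18 ± 0.0825 (edgeR adjusted p = 4.8e-14). SESN2 changed by -1.11 ± 0.145, GADD45A by -0.84 and PHLDA3 by -0.65. MDM2, the ligase that degrades p53, had overlapping libraries and differed by -0.33 (edgeR adjusted p = 0.087). Targets of ATF4 and of the unfolded protein response had 0 of 28 up and 10 down (median -0.25), with 5 down without Early_S library 1 and 6 without Late_S library 2. CHAC1, which degrades glutathione, changed by -2.05 ± 0.295 and ATF4 itself by -0.51 ± 0.0867. SESN2 belongs to the p53 targets here but also answers ATF4.

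Targets of YAP and SRF, which respond to adhesion and the actin cytoskeleton, had 2 of 26 up and 10 down (median -0.16). The count down was 5 without Early_S library 1 and 6 without Late_S library 1 or 2. CTGF changed by -0.52 ± 0.0796, CYR61 by -0.61 and FHL2 by -0.62. Among NF-kB and interferon genes, 6 of 21 rose and 4 fell, and 3 rose without Early_S library 1. Called members included NFKB2 (0.81 ± 0.156) and RELB (0.59), subunits of the noncanonical branch, the interferon factor IRF1 (-1.50 ± 0.197) and the chemokine CCL2 (-2.76 ± 0.498), which had 12.8 to 23.2 CPM in Early_S and 0.549 to 4.66 CPM in Late_S. Heat shock genes had 7 of 18 up and 2 down, with 3 of 12 up among those with at most 10% multimapped reads. HSPH1 changed by 0.48, HSPA1A, with 0.147% of its reads multimapped, by 0.52 and CRYAB by -0.56. Glycolysis and hypoxia genes had 2 of 26 up and 8 down. The count down was 3 without Early_S library 1, 5 without Early_S library 3 or Late_S library 2, 4 without Late_S library 3 and 5 of 21 genes with at most 10% multimapped reads. GAPDH, often used as a reference gene, changed by -0.25 ± 0.0413. Of cholesterol synthesis genes, 3 of 22 rose and 0 fell, with SQLE at 1.30 ± 0.160 and HMGCS1 at 0.61 ± 0.0700. Splicing factor genes had 7 of 28 up and 1 down, with HNRNPF at 0.55 and SRSF6 at 0.52.

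**Figure D2:**
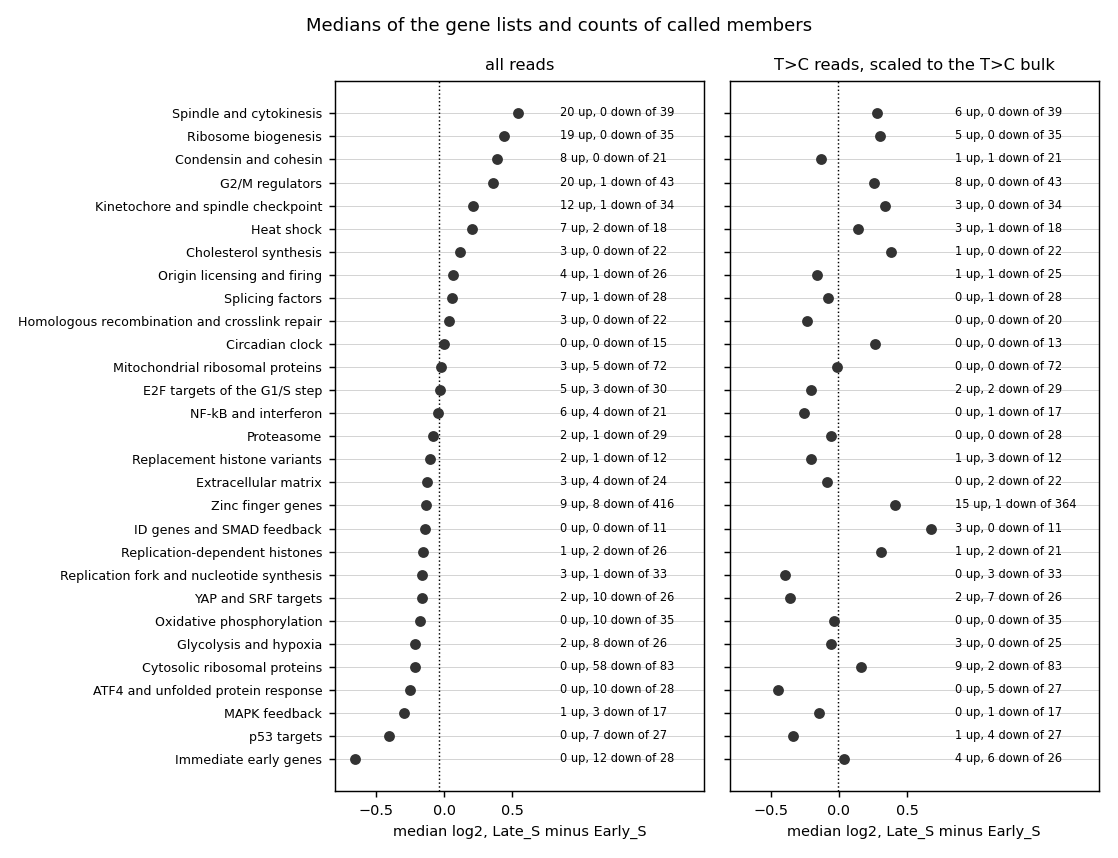
Median log2 difference of each gene list, Late_S minus Early_S, for all reads (left) and for T>C reads scaled to the T>C bulk (right), with the number of members called up and down of those tested. The dotted lines are the medians over all genes, -0.04 and -0.01, and on the all-read scale the T>C median of all genes is -0.91, so every point at the right would lie about that much lower. Spindle genes have the highest median of all reads (0.54) and immediate early genes the lowest (-0.65), while the list of ID and SMAD feedback genes has the highest median of T>C reads (0.67).

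ESM1, which encodes a secreted proteoglycan, was among the genes with the largest rise. It had 13.7, 14.4 and 11.8 CPM in Early_S and 60.8, 63.1 and 64.9 CPM in Late_S, at chr5:54977864-54979331 (minus strand), a log2 change of 2.24 ± 0.133 (edgeR adjusted p = 4.7e-16). No library of one gate came near the other. ACTR5, a subunit of the INO80 chromatin remodeller, changed by 2.13 ± 0.361 from 1.63 to 3.79 CPM to 10.3 to 13.6 CPM. CCND1, the cyclin of G1, differed by 0.17 and was not called (edgeR adjusted p = 0.15).

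By T>C reads scaled to the T>C bulk, 197 of 11474 genes were called up (1.72%) and 208 down (1.81%). The 2 scales part here. Of the 197 called up, 98 lay above 0 and 99 below 0 when the same reads were put on the all-read scale, 10 of them were called up there and 30 down, and their median was -0.02. All 208 called down were called down on both scales, with a median of -1.92 on the all-read scale. The scales count the same T>C reads and differ in library scaling only, which puts the bulk lower on the all-read scale. A gene called down on the T>C scale is thus all but bound to be called down on the other, so the overlap is no second line of support. Scaled to all reads, 11 genes were called up in all (0.0959%) and 4188 down (36.5%). The total called on the T>C scale was 226 without Early_S library 2 and 260 without Early_S library 3. In 402 of the 405 called genes the gates did not overlap, as in 22.5% of all genes tested.

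Labelled RNA of some genes of mitosis held up better than the bulk. On the T>C scale 8 of 43 G2/M regulators were called up and 0 down (median 0.26), whereas on the all-read scale 0 were up and 22 down (median -0.65). Without Early_S library 1 or 2 or Late_S library 1, 4 were called up on the T>C scale. PLK1 had 256, 193 and 207 T>C CPM in Early_S and 362, 349 and 357 in Late_S, a log2 difference of 0.70 ± 0.160 that passed (edgeR adjusted p = 0.0093), but not without Early_S library 2 or 3. On the all-read scale it had 49.4, 34.1 and 38.6 in Early_S and 35.5, 35.2 and 35.0 in Late_S, which overlap (log2 difference -0.21, edgeR adjusted p = 0.37). FAM83D was called up on both scales, from 191, 196 and 179 to 501, 616 and 470 T>C CPM (log2 1.49 ± 0.154), and by 0.59 ± 0.168 on the all-read scale, the latter not without Late_S library 2. GTSE1, a microtubule-binding protein, differed by 0.99 on the T>C scale and by 0.09, not called, on the other, and CCNF, an F-box cyclin, by 0.67 and -0.24. AURKA, with 280, 264 and 289 against 443, 374 and 513 T>C CPM, was not called (edgeR adjusted p = 0.051). Of spindle genes 6 of 39 were called up on the T>C scale (3 without Early_S library 3), and 1 up and 18 down on the other. GPSM2, which orients the spindle, stood at 5.68, 7.65 and 7.49 against 66.3, 69.0 and 52.2 T>C CPM, called up on both scales (log2 3.17 ± 0.590 and 2.27 ± 0.657).

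Of ribosome biogenesis genes, 5 of 35 were called up on the T>C scale and 0 down, with 3 up without any 1 of Early_S libraries 2 and 3 and Late_S libraries 1 and 3, and 0 up and 18 down on the all-read scale. WDR43 differed by 1.15 ± 0.189 on the first scale and by 0.26, not called, on the second. The list of ID and SMAD feedback genes, which also holds HES1 and HEY1, had 3 of 11 called up with a median of 0.67, and a median of -0.24 with 0 up and 2 down on the all-read scale. ID1, a target of BMP signals whose product blocks helix-loop-helix factors, had 2047, 2359 and 2433 T>C CPM in Early_S and 3691, 3767 and 3794 in Late_S, with no overlap (log2 0.72 ± 0.0741). On the all-read scale it had 396, 417 and 454 and then 362, 380 and 373, a log2 difference of -0.18 ± 0.0657 that passed as a fall (edgeR adjusted p = 0.031) and lost its call without any 1 of Early_S library 3 and Late_S libraries 1 and 3, without TMM factors or without the low-count filter. The level of all reads of ID1 was not called. ADM, the hypoxia-induced peptide adrenomedullin, was called up on both scales, from 71.8, 66.6 and 82.7 to 273, 238 and 310 T>C CPM (log2 1.89 ± 0.227) and by 0.99 ± 0.246 on the all-read scale.

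Immediate early genes divided by T>C reads, with 4 of 26 called up and 6 down on the T>C scale (median 0.04; 3 down without Early_S library 2) and 0 up and 17 down on the all-read scale. JUN was among the 4, at 561, 565 and 644 against 925, 861 and 1055 T>C CPM (log2 0.68 ± 0.113). Scaled to all reads, JUN had 108, 99.8 and 120 against 90.8, 86.9 and 104, overlapping and not called (log2 -0.22). MCL1, a survival factor, was called up by 0.52 on the T>C scale and down by -0.38 on the other, so its direction depends on the scale. EGR1 fell on both, from 244, 281 and 303 to 55.3, 57.4 and 51.7 T>C CPM (log2 -2.33 ± 0.239), and by -3.23 ± 0.235 on the all-read scale. ARC, an effector of synaptic signalling that is induced as an immediate early gene, changed by -1.13 and -2.03. MYC, which fell in all reads, differed by -0.06 on the T>C scale with overlapping libraries (edgeR adjusted p = 0.95).

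Among p53 targets 1 of 27 was called up and 4 down on the T>C scale (median -0.34). CDKN1A fell from 1828, 1789 and 1815 to 961, 809 and 987 T>C CPM (log2 -0.98 ± 0.105), and by -1.88 ± 0.118 on the all-read scale. SESN1, a stress-induced metabolic regulator, had 17.8, 29.6 and 31.3 and then 2.76, 0 and 3.26 T>C CPM. Of the E2F targets, 2 of 29 were called up and 2 down. CCNE1, whose level of all reads was not called, had 391, 421 and 339 against 212, 191 and 199 T>C CPM, with no overlap (log2 -0.94 ± 0.149). RRM2 differed by -0.59 ± 0.105, and PCNA, at 200, 280 and 253 against 102, 174 and 124, by -0.87 ± 0.186, the latter not called without Late_S library 1. CCNE1 and PCNA were also called down on the all-read scale, at -1.84 and -1.76. Fork and nucleotide genes had 0 of 33 up and 3 down (median -0.39). Of YAP and SRF targets, 2 of 26 were called up and 7 down (median -0.36). AMOTL2 and ANKRD1 were up by 0.63 and 0.51 on the T>C scale but at -0.28 and -0.40 on the other, and FHL2 (-1.09) was down on both. Genes for ATF4 targets had 0 of 27 up and 5 down, with 1 to 3 down whenever 1 of the 6 libraries was left out, and MTHFD2, of mitochondrial folate metabolism, differed by -0.62.

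TIMP1, an inhibitor of matrix metalloproteinases, had a steep fall in labelled RNA and a small one in all reads. It had 850, 977 and 931 T>C CPM in Early_S and 177, 155 and 190 in Late_S, with a log2 difference of -2.40 ± 0.169 (edgeR adjusted p = 3.0e-10), and of -3.30 ± 0.161 on the all-read scale. All reads gave 654, 691 and 709 CPM and then 544, 593 and 528 CPM (log2 -0.30 ± 0.0660). Both kinds of read separated the gates. Its most covered region was chrX:47586692-47586789 (plus strand).

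A gene's T>C reads were next set against its own other reads. The test in edgeR asks whether the ratio of T>C reads to other reads changed between the gates more or less than that of the bulk, and its log2 values below are changes of that ratio beyond the bulk, not of the labelled share. For a gene with a high share, a fall in this ratio is a smaller fall in the share itself. By this ratio 216 of 11474 genes were called up (1.88%) and 752 down (6.55%), with a median of -0.16 over all genes and of 0.80 and -1.37 over the called genes. Without 1 library the count up was as low as 142 (without Early_S library 3), 148 (without Early_S library 2) or 150 (without Early_S library 1) and otherwise 158 to 178, and the count down was 525 to 581. In 853 of the 968 called genes the shares of the gates did not overlap, as in 55.7% of all genes, so separation alone is common here. Of the genes that rose in all reads, 235 were called down by this ratio, 3 up and 722 not at all. Of those that fell in all reads, 42 were called down, 82 up and 452 not at all. These counts share libraries and are given side by side only.

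Genes grouped by their share in G1, libraries that neither gate used, show how the share and the calls varied with labelling in G1. Where the G1 share was under 10%, the mean of the library medians went from 6.79% in Early_S to 3.68% in Late_S over 1059 genes, a ratio of 0.542. Between 20% and 40% it went from 21.7% to 10.7% over 3943 genes (ratio 0.495), and between 40% and 60% from 43.0% to 20.4% over 2067 genes (0.474). At 60% to 80% it was 67.8% against 36.5% over 1121 genes (0.539), and at 80% to 100% it was 89.7% against 69.6% over 600 genes (0.775). A share cannot pass 100%, and the part of that bound in the last class was not tested. The share of genes called up on the T>C scale was 0.755% in the lowest class and 4.33% in the highest, against 1.72% of all genes, and the medians on that scale ran from -0.09 to 0.18, while on the all-read scale they were -0.99 and -0.72. By the ratio of T>C to other reads the medians went from 0.17 in the lowest class to -0.50 at 40% to 60%, -0.79 at 60% to 80% and -0.68 in the highest. In the lowest class 70 genes were called up by this ratio and 29 down (2.74%), at 60% to 80% 22 up and 180 down (16.1%), and in the highest 9 up and 59 down (9.83%). Calls down by the ratio of T>C to other reads were more frequent in the 3 classes from 40% upward, whereas the ratio of shares was highest in the last class. For a like ratio of shares, the ratio of T>C to other reads falls further where the share is higher. Part of the trend in medians and calls thus follows from the measure, and how much was not tested. G1 entered the fit that gave the calls, so the classes are not independent of them.

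**Figure D3:**
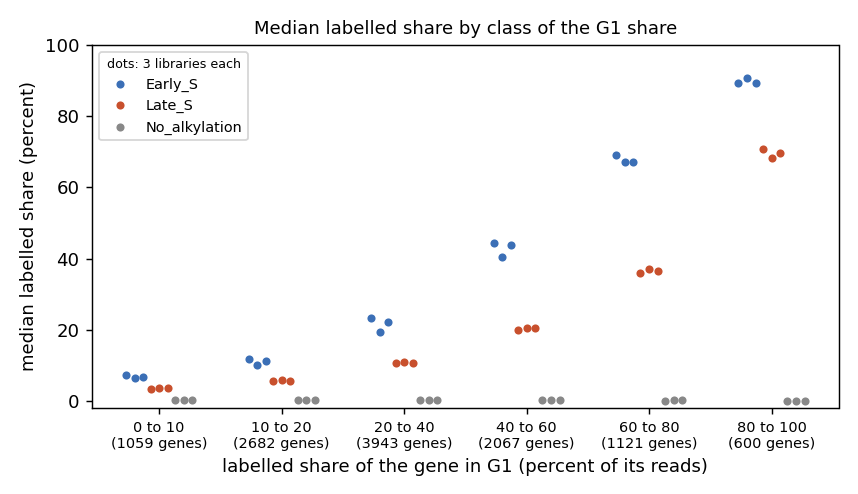
Median labelled share (percent of a gene's reads that carry a T>C conversion) by class of the share in G1, with 1 dot per library for Early_S (blue), Late_S (red) and No_alkylation (grey). Late_S lies below Early_S in every class and every library, from 3.68% against 6.79% in the lowest class to 69.6% against 89.7% in the highest, and No_alkylation stays near 0.

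Several genes of mitosis and of ribosome assembly that rose in all reads were called down in the ratio of T>C to other reads. Of G2/M regulators, 0 of 43 were called up and 9 down by this ratio (5 down without Early_S library 3, 14 without TMM factors). The list had a median of -0.50 by this ratio and a median share of 41.2% in G1. Over the 2067 genes with a G1 share of 40% to 60% the median was also -0.50, and 13.3% were called down. In the class next below, with a G1 share of 20% to 40%, the median was -0.13 and 4.26% were called down. The median G1 share of the list lies near the border of these classes, so neither class alone is a close match for it. The median labelled share of the list was 42.2% in Early_S and 20.4% in Late_S, and 0.666% without alkylation. AURKA had a share of 69.9%, 69.6% and 69.1% in Early_S and of 25.6%, 21.3% and 24.3% in Late_S. No libraries overlapped, and the log2 change of the ratio of T>C to other reads beyond the bulk was -1.78 ± 0.268 (edgeR adjusted p = 7.2e-05). For PLK1 the shares were 53.7%, 49.9% and 49.6% and then 20.9%, 18.96% and 21.3% (log2 -0.94 ± 0.201). UBE2C, which ubiquitinates cyclins, had -1.25 and the kinesins KIF18B and KIF2C had -2.58 and -1.36. WAPL went from 64.3%, 64.1% and 52.9% to 21.7%, 16.1% and 19.2% and RAD21 from 58.3%, 54.4% and 56.3% to 19.97%, 18.9% and 21.3%. Of ribosome biogenesis genes 1 of 35 was up and 8 down (5 down without any 1 of the Late_S libraries). DDX21 had 66.1%, 59.4% and 67.0% and then 23.7%, 22.8% and 24.6% (log2 -1.44 ± 0.134), and NOP2, a ribosomal RNA methyltransferase, -1.42.

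Of E2F targets 0 of 29 were called up and 7 down by this ratio, and 4 down without Early_S library 2 or Late_S library 3. The list median was -0.60, and its median share in G1 was 48.3%, in the class where 13.3% of genes were called down. CCNE1 went from 54.1%, 50.8% and 46.7% to 15.6%, 15.01% and 15.3% (log2 -1.41 ± 0.188), with no overlap and with Late_S libraries within 1 percentage point of each other. SLBP, which binds the histone stem-loop and is made in S phase, went from 82.4%, 78.2% and 88.0% to 38.4%, 26.9% and 37.7%. Replacement histone genes had 0 of 12 up and 4 down, and H3F3B, whose all reads rose, went from 49.2%, 51.6% and 49.2% to 14.4%, 15.3% and 13.8% (log2 -1.46 ± 0.102). TIMP1 went from 25.1%, 25.0% and 24.5% to 3.19%, 2.63% and 3.53%. CDKN1A, which fell in all reads, had 78.8%, 75.3% and 80.2% against 47.7%, 48.1% and 47.7% and was called down (log2 -0.87 ± 0.129), though the ratio of its mean shares lay above the 0.529 of the median gene, and TNFRSF10B, a death receptor and p53 target, 76.6%, 93.4% and 81.1% against 23.8%, 30.3% and 23.0%.

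Some genes with a high share in Early_S had a like share in Late_S. The ratio of mean shares was above 0.9 in 259 of 1633 genes with an Early_S share of 60% or more, against 1486 of all 11459 genes. JUN had 87.2%, 89.9% and 90.1% in Early_S and 86.6%, 86.1% and 89.4% in Late_S, which overlap, and was called up in the ratio of T>C to other reads (log2 0.86 ± 0.179). ID1 had 85.9%, 86.8% and 85.6% and then 81.9%, 83.3% and 85.1% (log2 0.80 ± 0.105), a lower share in each Late_S library with a ratio called up relative to the bulk. AMOTL2 had 89.9%, 90.3% and 88.6% and then 90.8%, 88.8% and 88.8%, and NFKBIA, the inhibitor of NF-kB, 83.0%, 87.2% and 83.8% and then 86.6%, 87.0% and 87.7%. Both overlap between the gates. MYC had 65.5%, 54.3% and 56.6% and then 52.0%, 63.7% and 64.7%, again overlapping, with a log2 change of the ratio beyond the bulk of 1.18 ± 0.332 that was not called without any 1 of libraries 2 and 3 of either gate. ADM had a higher share in every Late_S library than in any Early_S library, at 53.3%, 44.3% and 47.0% against 62.8%, 54.4% and 60.7% (log2 1.74 ± 0.330). EGR1 went from 67.7%, 74.1% and 72.3% to 36.5%, 31.8% and 35.8% and was not called (edgeR adjusted p = 0.075). Of immediate early genes 6 of 26 were called up and 3 down, with list medians of 74.2% and 63.9% against 0.435% without alkylation. JUND (-1.38) and ARC (-1.49) were among the 3.

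Of ribosomal protein genes, 61 of 83 were called up in the ratio of T>C to other reads and 1 down, with a median of 0.54. Over all genes 1.88% were called up and 6.55% down. The median G1 share of the list was 9.24%, in the class under 10%, where 70 of 1059 genes (6.61%) were called up. How many of the 70 are ribosomal protein genes was not counted. Shares of ribosomal protein genes were low, at a list median of 7.20% in Early_S and 5.22% in Late_S, with 0.519% without alkylation. RPLP1 had 4.69%, 4.04% and 4.56% and then 3.64%, 3.75% and 4.02%, with 1.35% without alkylation, so its share was lower in every Late_S library while its ratio was called up relative to the bulk (log2 0.87 ± 0.0773). RPS29 had 23.2%, 23.4% and 25.3% and then 23.4%, 23.95% and 25.2%, and 22.8% in the libraries without alkylation, so its share was much the same without the chemistry, and its call was lost once that background was subtracted. Among the 34 ribosomal protein genes with at most 10% multimapped reads, 24 were called up. GAPDH, at 4.12%, 4.27% and 3.99% against 3.15%, 3.12% and 3.39%, was called the same way (log2 0.72 ± 0.0779).

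**Figure D4:**
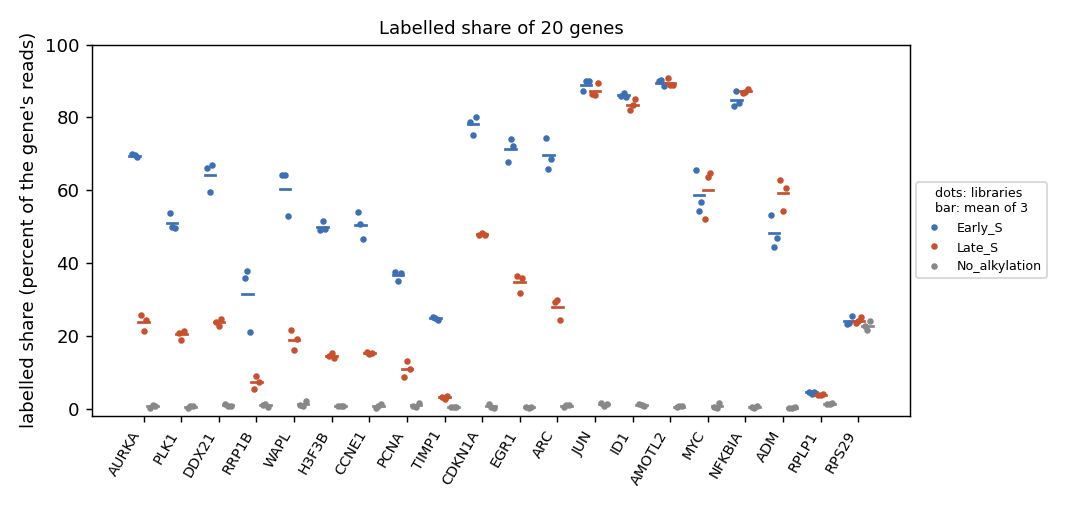
Labelled share (percent of the gene's reads with a T>C conversion) of 20 genes in the 3 libraries each of Early_S (blue), Late_S (red) and No_alkylation (grey), with a bar at the mean of each group. AURKA drops from about 69.5% to 23.7% on average, JUN, AMOTL2 and NFKBIA overlap between the gates, and RPS29 has much the same share without alkylation (22.8%).

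Late_S was also set against the point midway between Early_S and G2 on the log2 scale of all reads, to ask whether it lay on a straight course. Of 13755 genes, 105 were above that point (0.763%) and 56 below (0.407%) by edgeR. The total of 161 was 50 without Late_S library 1, 95 without Late_S library 2 and 51 without Late_S library 3. Of the 161, 45 lay above or below both gates with no overlap, as did 2.60% of all genes. ESM1 had 60.7, 57.7 and 54.1 CPM in G2, below all 3 Late_S libraries (60.8 to 64.9) and above all 3 Early_S libraries, and its log2 distance from the midpoint was 1.19 ± 0.105. TRAF1, an adaptor of TNF receptors, had 25.4, 28.5 and 35.4 CPM in Early_S, 75.8, 68.4 and 69.8 in Late_S and 58.9, 44.6 and 47.6 in G2, so Late_S was the highest of the 3 gates (0.88 ± 0.141). PTHLH, which encodes a parathyroid-hormone-related peptide, had 21.1, 34.6 and 13.3 CPM, then 6.67, 5.19 and 6.22 CPM, then 9.45, 11.8 and 8.97 CPM, and Late_S was the lowest (-1.33 ± 0.262). DDX21 and RRP1B had like levels in Late_S and G2, with DDX21 at 464, 418 and 517 CPM in G2 (0.45 ± 0.0708) and RRP1B at 123, 153 and 131 CPM (0.57 ± 0.0946), overlapping with Late_S. Of ribosome biogenesis genes 4 of 35 lay above the midpoint and 0 below (2 above without Late_S library 1 or 2).

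EGR1, IER3 and CDKN1A, which fell from Early_S to Late_S, were as low or lower in G2. EGR1 stood at 11.4, 16.6 and 10.8 CPM in G2, overlapping with Late_S, and lay below the midpoint (-0.95 ± 0.146). IER3, at 182, 191 and 201 CPM in G2, and CDKN1A, at 162, 131 and 155 CPM, lay below their Late_S libraries and below the midpoint as well (-0.48 ± 0.0676 and -0.41 ± 0.0720). Of immediate early genes 3 of 28 were called below the midpoint and 0 above. PLK1, TOP2A and CCNA2 did not pass this test. PLK1, at 269, 219 and 238 CPM in G2, was above its Late_S libraries, with a distance of 0.32 from the midpoint (edgeR adjusted p = 0.10), TOP2A had 0.37 (edgeR adjusted p = 0.075) and CCNA2, at 144, 161 and 135 CPM in G2, had 0.20 (edgeR adjusted p = 0.45).

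**Figure D5:**
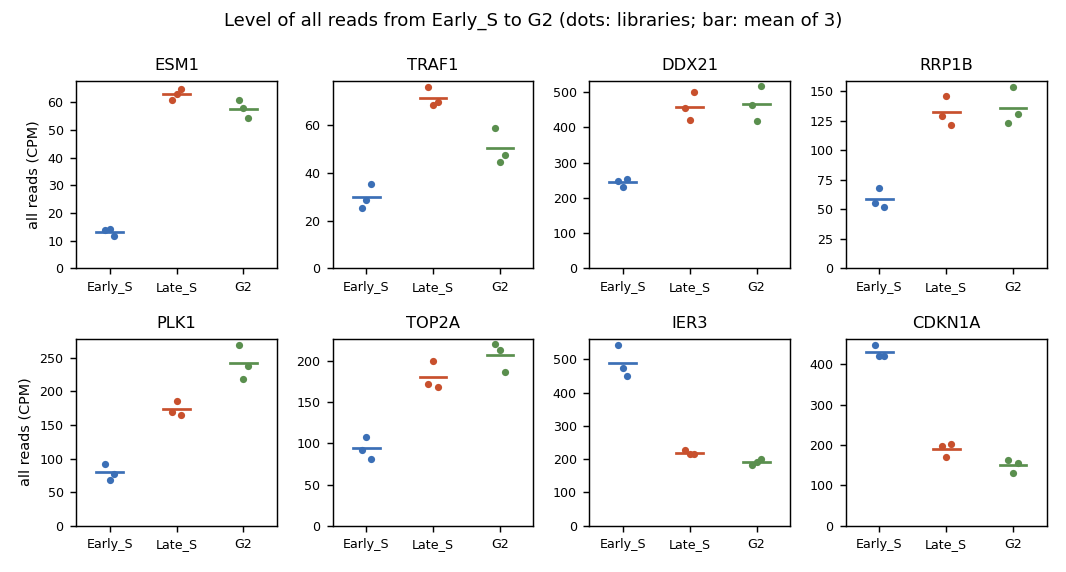
Level of all reads (CPM) of 8 genes in the 3 libraries each of Early_S, Late_S and G2, with a bar at the mean. ESM1 and TRAF1 are highest in Late_S, DDX21 and RRP1B overlap between Late_S and G2, PLK1 and TOP2A have means between those of the 2 other gates, and IER3 and CDKN1A are lower in Late_S than in Early_S and lower again in G2.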

How the data were processed

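Each of the 15 libraries had 1 deposited table from the authors, holding read counts, T>C read counts and multimapped read counts for 68625 regions (median 148 bases) of a merged Ensembl release 90 annotation on hg38 (build per the submitters' processing notes), made with slamdunk 0.2.4 per the file headers. The sources used here do not give the aligner settings. Counts, which carried no molecular identifiers, were summed by gene name (19531 names). edgeR 4.0.16 (R 4.3.3) fitted the 12 alkylated libraries after filterByExpr (at least 10 counts, 15 in total) and TMM scaling, called two-sided at an adjusted p of 0.05 over all genes. CPM in the text is per 1000000 reads of the genes that passed the filter, with that total multiplied by the TMM factor of the library. T>C CPM uses the total and factors of T>C reads, and the all-read scale those of all reads. The SE is that of the log2 change. T>C reads and other reads of each library, each with their own TMM factors, were fitted together to test their ratio. Alternatives were RLE factors, DESeq2 1.42.0, no filter, no TMM, these gates only, a replicate block, each library left out, limits on multimapped reads (10%) and on T>C reads without alkylation (5%), and, chosen after seeing the data, subtraction of that background. Promoters are RefSeq's.

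The members and the gene lists were chosen with earlier results of these data known. Genes were named by rule, per test: in either direction up to 6 of the largest changes without overlap and on 20 or more counts, up to 4 called members of each list (2 where none was called), and a set fixed by name. The fitting code was tested on simulated data.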

Additional observations from a re-analysis of the deposited data

How the results depend on the processing

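The direction of the labelled share and of the conversion rate held in each alternative run. With genes of at most 10% multimapped reads their differences were -9.22 and -1.17 percentage points, against -8.37 and -1.06. At steady state, leaving out 1 library gave 947 to 1250 calls, against 1547 (the 947, without Late_S library 3, being 662 up and 285 down). On the T>C scale DESeq2 called 748 genes (362 up, 386 down), against 405, and leaving out 1 library gave 226 to 323. Against the midpoint of Early_S and G2, DESeq2 called 293 genes (187 up, 106 down), against 161, and leaving out 1 library gave 50 to 178. These runs had fewer samples or another model, and other things differed too. Leaving out 1 library changed the genes tested, to 11613 to 12022 on the T>C scale (against 11474) and 14144 to 14172 for the midpoint (against 13755). DESeq2 used its own size factors in place of TMM. The cause was not tested further. The replicate block gave 1745 calls at steady state, 424 on the T>C scale, 4154 on the all-read scale, 967 by the ratio of T>C to other reads and 205 against the midpoint. Same-numbered libraries showed no shared deviation over genes (correlations of -0.00481, -0.00801 and -0.0124 for all reads and 0.0154, 0.0115 and 0.000649 for T>C reads). Such correlations cannot tell whether same-numbered libraries came from the same culture, which the labels do not give. With the T>C reads of No_alkylation subtracted, 173 were called up and 207 down on the T>C scale, and 8 of the 405 calls had the other sign. By the ratio of T>C to other reads that subtraction gave 141 up and 638 down, with 5 of 968 calls of the other sign, DESeq2 gave 356 up and 844 down, and library totals without TMM factors 166 up and 925 down, against 216 and 752. Genes that were not called could turn: PCNA in all reads was at 0.0098 without TMM factors and from -0.130 to 0.072 with 1 library left out, and MYC on the T>C scale ranged from -0.244 to 0.096. Over 190 tests of genes in the text, of which 168 were called, 2686 of 2743 alternatives kept direction and side of the threshold, 29 lost a call, 23 gained one and 5 turned.

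Precision is set by 3 libraries a gate and by T>C reads, of which Late_S libraries held 1826824 to 2177818 and Early_S libraries 2971237 to 3891028. Reads without molecular identifiers are not independent molecules. The exact test of 3 against 3 cannot go below 0.1.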

Other observations

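Labelled RNA of zinc finger genes (ZNF with a number) had a median of 0.41 on the T>C scale, against -0.01 over all genes. On that scale 15 of 364 were called up, against 1.72% of all genes, and 1 down, against 1.81%. The median G1 share of the list was 49.1%, and of genes with a G1 share of 40% to 60%, 3.05% were called up. On the all-read scale 0 were up and 38 down, against 0.0959% and 36.5% of all genes, with a median of -0.50. Leaving out 1 library lowered the 15 to 8 and 6 (without library 1 of Early_S or of Late_S), 4 and 9 (library 2) and 5 and 3 (library 3). In all reads 9 of 416 rose and 8 fell (median -0.13), against 6.99% and 4.25% of all genes. There were 3 up without Late_S library 2 or Early_S library 3 and 4 up without Late_S library 3. The count down was 4 without Late_S library 1 and 5 without Early_S library 1 or 2 or Late_S library 3. By the ratio of T>C to other reads 4 of 364 were called up and 10 down, against 1.88% and 6.55% of all genes. There were 0 up without Early_S library 2 or Late_S library 3, 1 up without Early_S library 1 and 6 down without Late_S library 2 or 3. The median labelled share of these genes was 45.8% in Early_S and 34.7% in Late_S, and 0.279% without alkylation. Of 15 circadian clock genes 0 were called in all reads, though CRY1, a repressor of the clock, was called down in the ratio of T>C to other reads, with shares that went from 48.2%, 66.0% and 64.8% to 14.02%, 18.5% and 8.70%. Of 29 proteasome genes 2 rose and 1 fell in all reads, and of 24 extracellular matrix genes 3 rose and 4 fell (1 rose without Late_S library 1 or 3 or Early_S library 2), against 6.99% up and 4.25% down of all genes.

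Some genes had T>C reads in each Early_S library and 0 in all 3 Late_S libraries. GCH1, the first enzyme of tetrahydrobiopterin synthesis, had 61, 28 and 19 such reads. Taking 3 counts over that group as the floor, its labelled RNA was 21.5-fold lower in Late_S on the T>C scale. ALPL, an alkaline phosphatase of bone, had 38, 16 and 42 (19.1-fold lower on the same scale and floor). In the other direction the histone gene HIST2H3C had 0 reads of any kind in Early_S and 19, 20 and 28 in Late_S. With 3 counts over Early_S as the floor, that was 19.95-fold higher in all reads. All of its reads were T>C reads, while the median labelled share of the 21 replication-dependent histone genes tested was 24.7% in Late_S. Whether the HIST2H3C reads mark new RNA was not tested. Such a floor treats each read as an independent molecule, which reads without identifiers are not. Between libraries of a gate the chi-square per gene was 13.88 to 19.85, more spread than counting error gives. The fold values are therefore not lower bounds.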
